A study of Mus musculus with 16 samples.

Results

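The AMP-activated protein kinase (AMPK) is built from a catalytic α, a scaffolding β and a regulatory γ subunit, and each of the 3 has more than 1 gene. The 8 genes described here are the 7 AMPK subunit genes, *Prkaa1*, *Prkaa2*, *Prkab1*, *Prkab2*, *Prkag1*, *Prkag2* and *Prkag3*, and *Stk11*, which encodes the upstream kinase LKB1. They were taken by name from the 24454 genes of the count table, and all 8 were among the 15487 genes that passed the filter on low counts. RNA had been sequenced from *gastrocnemius* muscle, a mostly fast hindlimb muscle, of 16 mice at 3 months of age. HSALR mice, a model of myotonic dystrophy type I, are homozygous for a human skeletal actin transgene with an expanded CTG repeat. The transgene is driven by its own skeletal actin promoter, so its repeat RNA is made in skeletal muscle, and the mice come from a single line. 5 HSALR mice were given AICAR at 500 mg/kg for 7 days and 5 were given vehicle. Control animals, 3 with AICAR and 3 with vehicle, were FVB/N mice, the background strain, without the transgene, and are not described as littermates. Each library was made from a part of the powdered muscle of 1 mouse.

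AMPK senses the energy state of the cell. AMP and ADP bind to the γ subunit, LKB1 in complex with its partners STRAD and MO25 phosphorylates the activation loop of the α subunit, and the β subunit holds the complex together and binds glycogen. AICAR is taken up by cells and phosphorylated to ZMP, an analogue of AMP that binds the γ subunit. Fast muscle fibres of rodents are known for complexes that hold the α2, β2 and γ3 subunits, encoded by *Prkaa2*, *Prkab2* and *Prkag3*. Most other tissues rely more on α1, β1 and γ1. Transcript levels say nothing on the phosphorylation of the kinase, which was not measured in these libraries.

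Counted reads summed to 64890014 in the shallowest and 81987726 in the deepest library, and the medians of the 4 groups lay between 70340149 and 75626119. Normalized CPM, counts per 1000000 counts of the library after TMM scaling, is the unit of a gene's level, and the library factors lay between 0.906 and 1.06. Adjusted p-values come from edgeR's quasi-likelihood test over all genes with Benjamini-Hochberg adjustment, and a gene was called at an adjusted p under 0.05. Muscle markers (*Ckm*, *Acta1*, *Mb*, *Ttn*, *Des*) summed to between 58969 and 78884 normalized CPM in every mouse, and none of them was at 0. Single markers still differed between groups. Of the 5, 2 were called higher and 1 lower in HSALR than in control mice after vehicle, and 2 higher after AICAR. With AICAR 1 was called higher in each genotype. Some libraries held transcripts of epidermis. *Krt14*, a keratin of the basal epidermis, was above 1 normalized CPM in 4 of 5 vehicle-treated HSALR mice, in 1 of 3 control mice of either treatment and in 0 of 5 AICAR-treated HSALR mice, with a highest value of 32.2. Results that rest on these libraries are also given without them, which leaves a single vehicle-treated HSALR mouse (S451). In those fits the single mouse is assumed to vary like the mice of the other groups. In whole muscle, fewer cells of a type and less RNA per cell cannot be told apart.

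All 8 genes were measured at a depth that leaves little counting error. The lowest count of any of them was 415, for *Prkag2*, and the highest was 52195, for *Prkab2*. Levels of different genes were compared per kb of the deposited gene length. In vehicle-treated control muscle the order was *Prkab2* with 139 ± 13.5 normalized CPM per kb (SD, n = 3), *Prkag3* with 66.7 ± 14.5, *Prkaa2* with 60.9 ± 3.24, *Prkag1* with 34.4 ± 1.69 and *Stk11* with 30.8 ± 1.39. *Prkaa1* with 6.00 ± 0.475, *Prkab1* with 5.98 ± 0.724 and *Prkag2* with 1.95 ± 0.313 normalized CPM per kb stood far below. The genes of α2, β2 and γ3 were the 3 highest of the 7 subunit genes. *Prkag3* and *Prkaa2* overlapped between mice, as did *Prkaa1* and *Prkab1*, while the other neighbours in this order did not. In vehicle-treated HSALR muscle *Prkab2* was at 71.9 ± 9.56 normalized CPM per kb (n = 5) and overlapped with *Prkag3* at 61.9 ± 11.3, and *Prkag3* overlapped with *Prkaa2* at 44.8 ± 5.25. In AICAR-treated HSALR muscle *Prkag3* had moved from the second to the fifth place, with 21.2 ± 4.81 normalized CPM per kb, behind *Prkab2*, *Prkaa2*, *Prkag1* and *Stk11*. Its range of 14.6 to 26.7 still overlapped with that of *Stk11*, 24.0 to 25.7. In AICAR-treated control muscle *Prkag3* held the third place at 41.5 ± 9.39 normalized CPM per kb and overlapped with *Prkag1* at 36.8 ± 0.902.

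**Figure D1:**
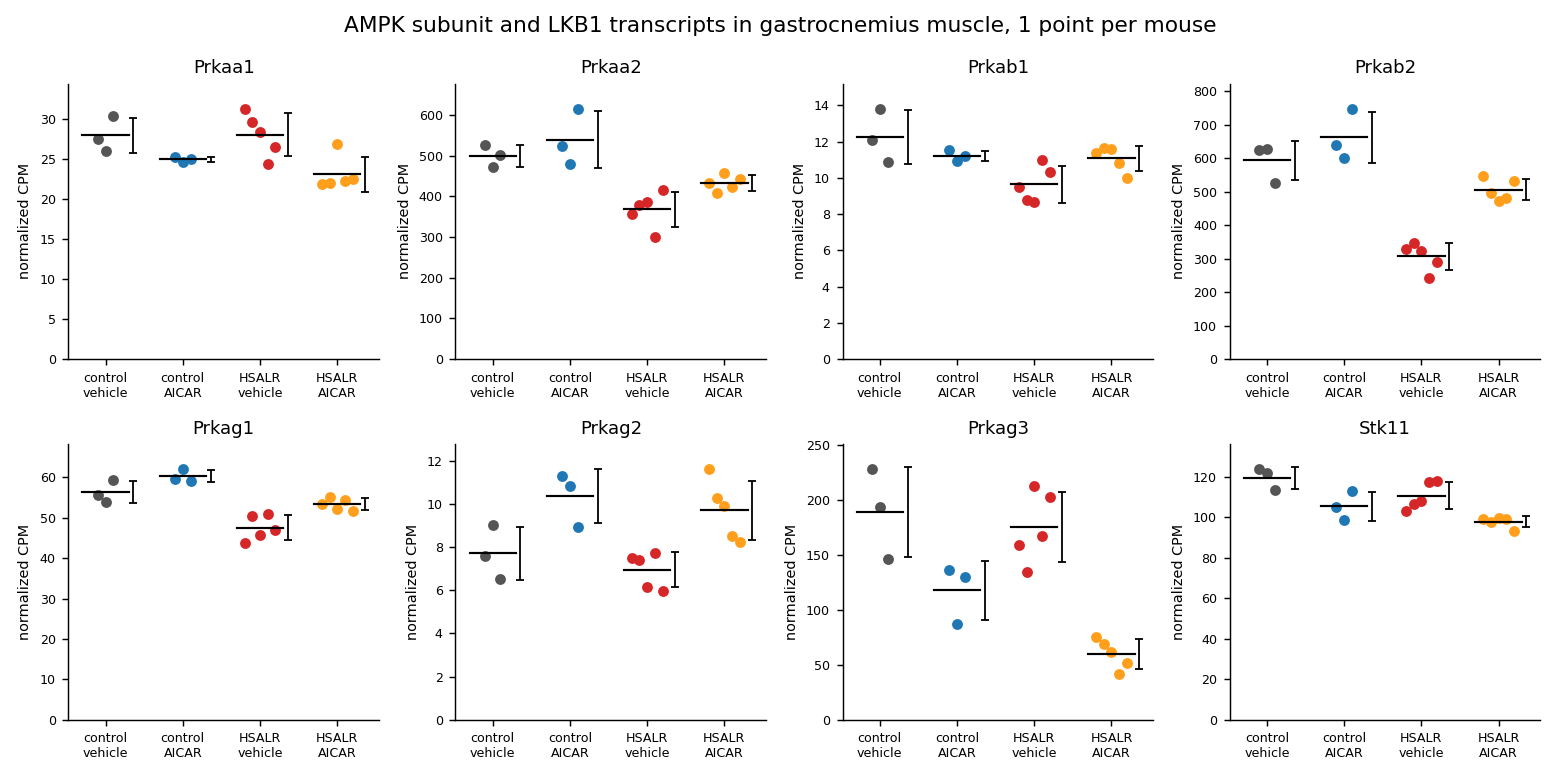
Normalized CPM of the 8 genes (vertical axes, each from 0) in vehicle- and AICAR-treated control and HSALR mice, with 1 point per mouse, the group mean as a horizontal line and the SD as a bar beside it. The 5 vehicle-treated HSALR mice lie between 243 and 346 for *Prkab2*, below every other mouse, and the 5 AICAR-treated HSALR mice lie between 41.4 and 75.7 for *Prkag3*, below every other mouse.

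*Prkab2*, the gene of the β2 scaffold, was the AMPK gene with the lowest adjusted p between the genotypes after vehicle. It lies on chromosome 3 (GRCm38, 97658193 to 97673812, plus strand) with 1 annotated coding transcript of 8 exons. *Prkaa2*, the gene of the α2 catalytic subunit, lies on chromosome 4 (105029874 to 105109890, minus strand) with 9 exons. With TMM scaling its fold changes had the same sign as those of *Prkab2* in all 5 contrasts, as did those of *Prkag1* and *Prkag2*. *Prkag3*, the gene of the muscle subunit γ3, lies on chromosome 1 (74738922 to 74749221, minus strand), and its 3 coding transcripts have between 12 and 14 exons. The RefSeq promoters of *Prkab2*, *Prkaa2* and *Prkag3* run from 250 bases before to 50 bases after the annotated start. They are printed because *Prkab2* and *Prkaa2* rose with AICAR in HSALR muscle while *Prkag3* fell. Capitals mark 2 motifs on either strand, the E-box CANNTG, read by basic helix-loop-helix factors such as MyoD, and the GC box GGGCGG, read by factors of the Sp family.
Prkab2, chr3:97657962-97658261, plus strand: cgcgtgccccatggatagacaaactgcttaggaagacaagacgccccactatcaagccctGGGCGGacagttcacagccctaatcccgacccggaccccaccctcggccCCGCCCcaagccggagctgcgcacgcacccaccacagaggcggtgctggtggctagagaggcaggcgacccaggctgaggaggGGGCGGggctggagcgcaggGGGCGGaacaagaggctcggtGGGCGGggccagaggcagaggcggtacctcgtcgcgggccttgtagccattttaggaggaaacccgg
Prkaa2, chr4:105109849-105110148, minus strand: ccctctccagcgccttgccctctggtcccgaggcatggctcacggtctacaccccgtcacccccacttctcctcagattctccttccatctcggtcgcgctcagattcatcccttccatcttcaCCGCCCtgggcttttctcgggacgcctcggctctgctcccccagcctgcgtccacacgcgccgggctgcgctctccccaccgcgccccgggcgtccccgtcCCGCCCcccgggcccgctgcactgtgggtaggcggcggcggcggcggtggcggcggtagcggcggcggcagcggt
Prkag3, chr1:74748906-74749205, minus strand: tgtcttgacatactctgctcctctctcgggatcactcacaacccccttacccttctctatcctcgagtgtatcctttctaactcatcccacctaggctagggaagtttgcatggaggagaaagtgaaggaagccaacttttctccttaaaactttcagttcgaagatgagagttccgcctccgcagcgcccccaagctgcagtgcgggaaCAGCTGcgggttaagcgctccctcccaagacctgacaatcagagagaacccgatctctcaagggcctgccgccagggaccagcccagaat
The *Prkab2* promoter holds 5 GC boxes and the *Prkaa2* promoter 2, and neither window holds an E-box. The *Prkag3* promoter holds 1 E-box and 0 GC boxes. Of 32851 RefSeq mouse promoters of this length, 72.3% hold an E-box and 35.7% hold a GC box. The GC content is 68.0% for *Prkab2*, 72.7% for *Prkaa2* and 54.0% for *Prkag3*, against a median of 52.7% over all promoters. The window of *Prkaa1*, the other α gene, which fell with AICAR in HSALR muscle, holds 5 GC boxes and 0 E-boxes and has a GC content of 82.0%. Of the other genes that rose, *Prkag1* has 1 E-box and 2 GC boxes. The 3 *Prkag2* windows hold 2, 3 and 2 E-boxes and 1, 0 and 2 GC boxes. *Stk11*, which fell, has 2 E-boxes and 1 GC box, and *Prkab1*, not called, has 0 of either. Both motifs were thus found in genes of either direction, and their part was not tested. The TATA letters TATAAA are in none of the 10 promoters of the 8 genes.

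The first comparison asked how HSALR muscle differed from control muscle after vehicle. 4 of the 8 genes were lower in HSALR muscle and 0 were higher, and 11.5% of all genes tested were called lower and 15.4% higher. The 4 were *Prkaa2*, *Prkab1*, *Prkab2* and *Prkag1*, so that each subunit family had a lower member, although *Prkag1* changed sign with scaling to *Tbp*. The median log2 fold change of the 8 genes was -0.20, and that of all genes was 0.0097.

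*Prkab2* had normalized CPM values of 624, 628 and 527 in the vehicle-treated control mice. In the vehicle-treated HSALR mice they were 329, 346, 324, 243 and 290. All HSALR mice were below all control mice. The mean of HSALR mice was 0.517 times that of control mice, with a log2 fold change of -0.95 (SE 0.10, adjusted p = 1.17e-05). *Prkab1*, the gene of β1, is on chromosome 5 (116013586 to 116024508, minus strand). Its normalized CPM was 12.1, 13.8 and 10.9 in control mice and between 8.64 and 11.0 in HSALR mice, so the groups overlapped slightly. Its log2 fold change was -0.35 (SE 0.09, adjusted p = 0.0114), and without control mouse S446 it was -0.25 with an adjusted p of 0.0814.

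*Prkaa2* was at 525, 472 and 502 normalized CPM in control mice and at 356, 378, 387, 301 and 416 in HSALR mice, and the groups did not overlap. Its log2 fold change was -0.44 (SE 0.09, adjusted p = 0.00267). *Prkaa1*, the gene of α1 on chromosome 15 (5143861 to 5181899, plus strand), had nearly the same mean in both genotypes, 27.9 ± 2.21 (SD, n = 3) and 28.0 ± 2.68 normalized CPM (n = 5). The interval of its log2 fold change reached from -0.18 to 0.18 (95%).

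Among the γ genes, *Prkag1* was lower and neither *Prkag2* nor *Prkag3* was called. *Prkag1*, the widely expressed γ1, is also on chromosome 15 (98812797 to 98831521, minus strand). It was at 55.6, 54.0 and 59.4 normalized CPM in control mice and at 43.9, 50.5, 45.8, 50.9 and 47.0 in HSALR mice, again without overlap. The difference was small against that of *Prkab2*, with a log2 fold change of -0.24 (SE 0.05, adjusted p = 0.00364), and with scaling to *Tbp* it turned to 0.032. *Prkag3* was at 228, 193 and 146 normalized CPM in control mice and at 159, 135, 213, 167 and 203 in HSALR mice, which overlapped widely. Its log2 fold change of -0.11 had an interval from -0.55 to 0.33. *Prkag2*, on chromosome 5 (24862744 to 25100642, minus strand), had a log2 fold change of -0.15 with an interval from -0.44 to 0.14. *Stk11* was at 120 ± 5.41 normalized CPM in control mice and 111 ± 6.75 in HSALR mice, with a log2 fold change of -0.11 (SE 0.06, adjusted p = 0.169).

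*Tbp*, the gene that the study used as its qPCR reference, was itself lower in vehicle-treated HSALR muscle, by a log2 fold change of -0.27 (SE 0.09, adjusted p = 0.0412). Scaling to *Tbp* moved the median of all genes to 0.28, and of the 8 genes only *Prkab2* was then called, at a log2 fold change of -0.68. With that scaling the uncalled *Prkag2*, *Prkag3* and *Stk11* had positive log2 fold changes of 0.11, 0.16 and 0.16. Without the libraries with *Krt14* above 1 normalized CPM, 1 HSALR mouse was set against 2 control mice, with the spread taken from the other groups, and these values are no independent check of the calls. *Prkab2* was then at -0.93 (adjusted p = 0.00345), *Prkaa2* at -0.49 (0.0473), *Prkag1* at -0.33 (0.0418) and *Prkab1* at -0.46 (0.0908). The uncalled *Prkag3* and *Stk11* were at -0.41 (0.48) and -0.26 (0.105). Endothelial markers moved with these genes. 4 of 5 were lower in vehicle-treated HSALR muscle, and their sum was between 244 and 274 normalized CPM in control and between 165 and 215 in HSALR mice, with none of the markers at 0. 3 of 6 markers of type IIA and slow fibres were also lower, with sums of 6073 to 12591 in control and 4365 to 5733 in HSALR mice. 2 of 4 smooth muscle markers were lower, with sums of 152 to 243 in control and 117 to 157 in HSALR mice, and 1 of 3 satellite cell markers was higher, with sums of 1.66 to 3.08 and 3.32 to 4.80. The sums of fast fibre markers overlapped, with 69682 to 94247 in control and 70372 to 92743 in HSALR mice. 1 of these 6 markers was higher, *Myh1*, the myosin of type IIX fibres, named after its values were seen, with 3513 to 5408 normalized CPM in control and 9473 to 17612 in HSALR mice (log2 fold change 1.52, adjusted p = 4.08e-05). The part of these cell and fibre types in the lower AMPK transcripts was not tested.

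**Figure D2:**
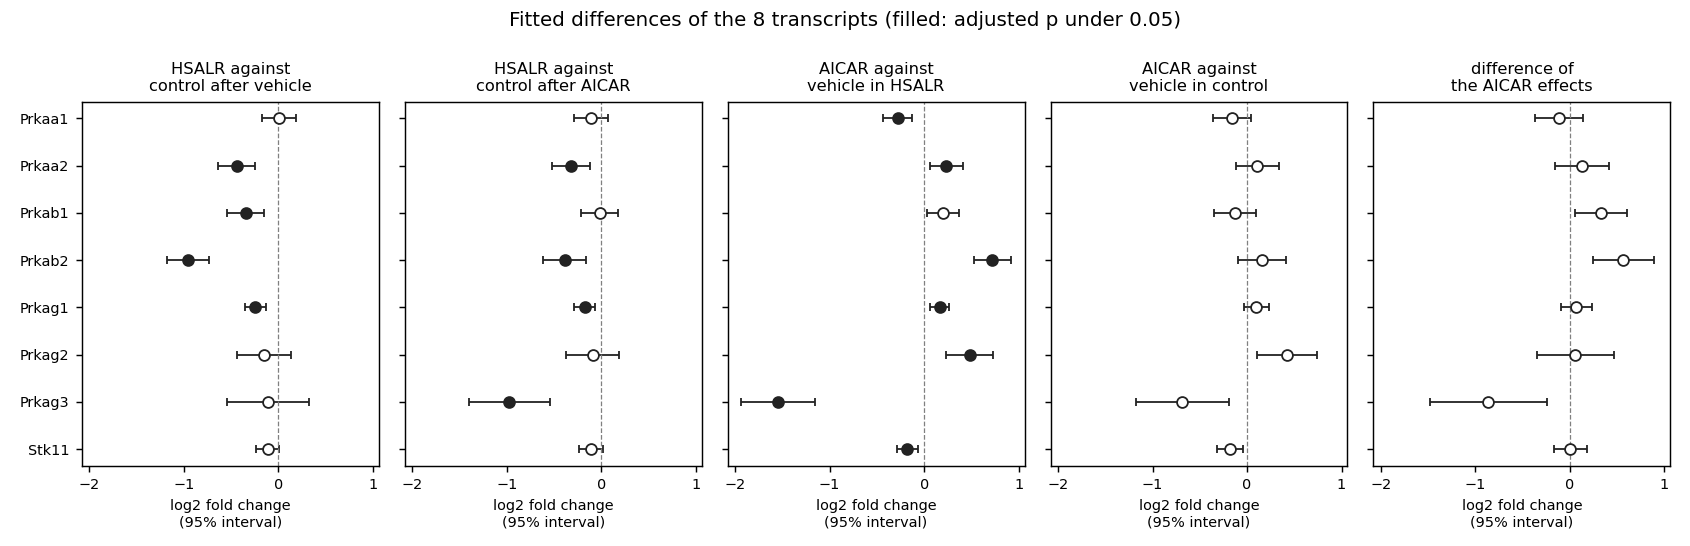
Log2 fold changes of the 8 genes (horizontal axis) in the 5 contrasts, as fitted by edgeR with TMM scaling, with 95% intervals and filled points for an adjusted p under 0.05. *Prkab2* is at -0.95 in HSALR against control after vehicle and at 0.72 with AICAR in HSALR mice, *Prkag3* is at -1.55 with AICAR in HSALR mice, and the small *Prkag1* difference after vehicle changes sign with scaling to *Tbp*.

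The second comparison asked what AICAR did in HSALR muscle. 7 of the 8 genes were called, 4 higher and 3 lower, where 13.7% of all genes tested were higher and 13.0% lower. *Prkab2*, *Prkag2*, *Prkaa2* and *Prkag1* were higher after AICAR, and *Prkag3*, *Prkaa1* and *Stk11* were lower. *Prkab1* was not called by edgeR, at a log2 fold change of 0.20 (SE 0.08, adjusted p = 0.0752), but was called by DESeq2 (0.20, adjusted p = 0.0498) and, without vehicle-treated mouse S458, by edgeR (0.25, adjusted p = 0.0302). The median log2 fold change of the 8 genes was 0.18, against -0.02 for all genes.

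*Prkag3* showed the largest difference of the 8 genes. It fell from 159, 135, 213, 167 and 203 normalized CPM after vehicle to 75.7, 68.8, 62.1, 41.4 and 51.6 after AICAR. Every AICAR-treated mouse was below every vehicle-treated mouse, and the mean after AICAR was 0.342 times that after vehicle (log2 fold change -1.55, SE 0.18, adjusted p = 3.61e-05). It remained called in all 27 alternatives, with log2 fold changes between -1.67 and -1.41. The other γ genes went the other way. *Prkag2* rose from 6.95 ± 0.817 to 9.70 ± 1.37 normalized CPM (SD, n = 5 each), with a log2 fold change of 0.48 (SE 0.12, adjusted p = 0.00709). Every AICAR value, from 8.24 to 11.6, was above every vehicle value, from 5.97 to 7.71. *Prkag1* rose from 47.6 ± 3.05 to 53.4 ± 1.49 normalized CPM, again without overlap, by 0.17 on the log2 scale (SE 0.05, adjusted p = 0.0173). With scaling by library size alone it was at 0.09 (adjusted p = 0.281), and its call was also lost with upper-quartile scaling (0.14, 0.0571) and with scaling to *Tbp* (0.05, 0.708).

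*Prkab2* rose to 547, 496, 471, 482 and 530 normalized CPM in the AICAR-treated HSALR mice. All 5 were above the vehicle-treated HSALR mice, which also enter the comparison of the genotypes after vehicle, and 2 of them were above the lowest vehicle-treated control mouse, at 527. The mean was 1.65 times that after vehicle (log2 fold change 0.72, SE 0.09, adjusted p = 7.57e-05), and it was called in all 27 alternatives, at 0.60 to 0.77. *Prkaa2* was at 432, 407, 457, 424 and 443 normalized CPM after AICAR, and the lowest of these fell below the highest vehicle value of 416. Its log2 fold change was 0.23 (SE 0.08, adjusted p = 0.0462), a value close to the threshold. The call was lost in 19 of 27 alternatives. It was lost when any mouse other than S448, S449 or S459 was left out, with the lowest of these values, 0.17, without vehicle-treated mouse S458. It was also lost with RLE (0.24, adjusted p = 0.0517), upper-quartile (0.21, 0.0529), library size (0.16, 0.0951) and *Tbp* scaling (0.12, 0.52) and without the filter on low counts (0.23, 0.0553). *Prkaa1* fell from 28.0 ± 2.68 to 23.1 ± 2.14 normalized CPM, by 0.28 on the log2 scale (SE 0.07, adjusted p = 0.0111). 4 AICAR-treated mice were between 21.8 and 22.4 and the fifth, S460, at 26.9, inside the vehicle range of 24.4 to 31.3. Without S460 the log2 fold change of *Prkaa1* was -0.34. The 2 α genes thus differed in direction, as did *Prkag3* and the other 2 γ genes.

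*Stk11*, on chromosome 10 (80115803 to 80130682, plus strand), encodes LKB1, the kinase that phosphorylates AMPK and the AMPK-related kinases. Its normalized CPM was 103, 107, 108, 117 and 118 after vehicle and 99.1, 97.8, 99.5, 99.2 and 93.3 after AICAR, with all AICAR values below all vehicle values. The mean was 0.884 times that after vehicle (log2 fold change -0.18, SE 0.05, adjusted p = 0.0171). With scaling to *Tbp* the calls of *Stk11* (-0.29, adjusted p = 0.0555) and *Prkag2* (0.37, 0.0880) were lost.

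Epidermal transcripts moved with this contrast. All 8 epidermal markers were lower with AICAR, their sum was between 0.612 and 187 normalized CPM in vehicle-treated and between 0.242 and 0.371 in AICAR-treated HSALR mice, and 2 of the 8 were at 0 in all AICAR-treated HSALR mice. Without the libraries with *Krt14* above 1 normalized CPM, 3 of the 8 genes were called, with S451 as the only vehicle-treated mouse and the spread taken from the other groups. *Prkag3* was then at -1.41 (adjusted p = 0.0113), *Prkab2* at 0.62 (0.0202) and *Prkaa1* at -0.44 (0.0487). The other calls were lost with a single vehicle-treated mouse, at log2 fold changes of 0.28 for *Prkaa2*, 0.28 for *Prkag1*, 0.37 for *Prkag2* and -0.08 for *Stk11*. 2 of 5 endothelial markers rose and 3 of 5 fibroblast markers fell with AICAR in HSALR muscle. Their sums overlapped between the treatments, with fibroblast sums of 1236 to 1657 normalized CPM after vehicle and 959 to 1285 after AICAR. 1 of 3 satellite cell markers fell, and the sums of that list did not overlap, with 3.32 to 4.80 after vehicle and 2.40 to 3.15 after AICAR. 1 of 5 Schwann cell and 1 of 6 macrophage and leukocyte markers were also lower, with sums that overlapped. The part of these cells in the 7 calls was not tested.

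In control muscle, AICAR gave 0 calls among the 8 genes with edgeR, against 8.40% higher and 4.77% lower among all genes tested. 3 of the 8 had an unadjusted p under 0.05, DESeq2 called these 3 and limma with voom called 0. *Prkag3* was at 228, 193 and 146 normalized CPM after vehicle and at 136, 87.2 and 130 after AICAR, without overlap. Its log2 fold change of -0.68 (SE 0.23) had an adjusted p of 0.0633, and leaving out mouse S450 gave -0.84 (adjusted p = 0.0435). Leaving out S462, an HSALR mouse that bears on this contrast only through the shared spread, gave -0.68 (adjusted p = 0.0466). *Prkag2* was at 7.58, 9.00 and 6.54 after vehicle and at 11.3, 10.8 and 8.92 after AICAR, which overlapped slightly, with a log2 fold change of 0.42 (SE 0.15, adjusted p = 0.0756). Without S446 it was at 0.55 (adjusted p = 0.0450). Over all omissions of 1 mouse *Prkag3* lay between -0.84 and -0.52 and *Prkag2* between 0.32 and 0.55. Without the libraries with *Krt14* above 1 normalized CPM, which leaves 2 control mice per treatment, *Prkag2* was at 0.27 (adjusted p = 0.413), *Prkag3* at -0.67 (0.13) and *Stk11* at -0.18 (0.147). *Stk11* had a log2 fold change of -0.18 (SE 0.07, adjusted p = 0.0783), a value close to that in HSALR mice. *Prkab2* was at 624, 628 and 527 after vehicle and at 638, 599 and 748 after AICAR, with a log2 fold change of 0.16 and an interval from -0.10 to 0.41. The log2 fold changes of *Prkaa1*, *Prkaa2*, *Prkab1* and *Prkag1* in control muscle lay between -0.16 and 0.11. With scaling to *Tbp* those of *Prkaa1*, *Prkab1* and *Stk11* turned positive. Among the cell type markers, 1 of 3 satellite cell markers was lower with AICAR and 1 of 5 muscle markers was higher. The satellite cell sums were 1.66 to 3.08 after vehicle and 1.11 to 1.66 after AICAR, which overlapped slightly. The part of these cells was not tested.

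Whether AICAR acted differently in the 2 genotypes was tested as the difference of the 2 AICAR effects. 0 of the 8 genes were called by edgeR, and of all genes tested 0.207% were called higher and 0.484% lower. 3 of the 8 had an unadjusted p under 0.05, DESeq2 called 1 of them, *Prkab2*, and limma with voom called 0. *Prkab2* rose more in HSALR than in control mice by 0.56 on the log2 scale, with an interval from 0.24 to 0.89 (adjusted p = 0.101 by edgeR's quasi-likelihood test and 0.0215 by DESeq2). *Prkag3* differed by -0.86, with an interval from -1.49 to -0.24 (edgeR adjusted p = 0.185). *Prkab1* differed by 0.33 with an interval from 0.05 to 0.61 (edgeR adjusted p = 0.253). *Prkaa2* differed by 0.12, with an interval from -0.16 to 0.41. With scaling to *Tbp* the difference was called for *Prkag3* (-1.19, adjusted p = 0.0459). It was then 0.25 for *Prkab2*, -0.19 for *Prkaa2*, 0.023 for *Prkab1* and -0.31 for *Stk11*, none of them called. With TMM scaling the difference for *Stk11* was 0.0039, with an interval from -0.17 to 0.18. Calls in HSALR mice without a call in control mice therefore do not show that the effects differed. Without the libraries with *Krt14* above 1 normalized CPM the differences were 0.48 for *Prkab2* (adjusted p = 0.381) and -0.74 for *Prkag3* (adjusted p = 0.527).

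After AICAR, HSALR muscle had lower levels of 4 of the 8 genes than control muscle, and higher levels of 0, where 9.64% of all genes tested were lower and 12.2% higher. The 4 were *Prkag3*, *Prkab2*, *Prkaa2* and *Prkag1*. *Prkag3* was at 136, 87.2 and 130 normalized CPM in control and at 41.4 to 75.7 in HSALR mice, with a log2 fold change of -0.97 (SE 0.20, adjusted p = 0.0035). It was called in all 27 alternatives. *Prkab2* was at 638, 599 and 748 in control and at 471 to 547 in HSALR mice, with a log2 fold change of -0.39 (SE 0.11, adjusted p = 0.0168). The groups did not overlap, and without control mouse S449 the value was -0.29 (adjusted p = 0.0937). *Prkaa2* differed by -0.32 (SE 0.09, adjusted p = 0.0247), and its call was lost without S447 (-0.34, 0.0539), S449 (-0.21, 0.142) or S455 (-0.30, 0.0540). *Prkag1* differed by -0.18 (SE 0.05, adjusted p = 0.0295), and its call was lost without S447, S448, S449, S454 or S463, at values between -0.19 and -0.16. It was lost in 9 of 27 alternatives in all, which also include upper-quartile scaling (-0.16, adjusted p = 0.0585) and library size (-0.19, 0.0557). With scaling to *Tbp* the calls of *Prkab2* (-0.43, adjusted p = 0.0518), *Prkaa2* (-0.35, 0.115) and *Prkag1* (-0.22, 0.187) were all lost. *Prkab1*, which was lower in HSALR mice after vehicle, was at 11.2 ± 0.283 normalized CPM in control and 11.1 ± 0.693 in HSALR mice after AICAR (log2 fold change -0.02, adjusted p = 0.916). 5 of 8 epidermal markers were lower in this contrast, as were 2 of 5 endothelial markers, whose sums were between 258 and 270 normalized CPM in control and between 206 and 223 in HSALR mice. 2 of 3 satellite cell markers were higher, with sums of 1.11 to 1.66 in control and 2.40 to 3.15 in HSALR mice. 1 of 4 smooth muscle markers was lower, with sums of 131 to 198 in control and 106 to 129 in HSALR mice. Of the 6 fast fibre markers 1 was higher and 1 lower. *Myh1* was higher, with 5116 to 5872 normalized CPM in control and 14295 to 19358 in HSALR mice (adjusted p = 7.82e-05). *Myh4*, the myosin of type IIB fibres, was lower, with 46589 to 77356 in control and 29131 to 40102 in HSALR mice (adjusted p = 0.0177). The part of these cells and fibres in the lower AMPK transcripts was not tested. Without the libraries with *Krt14* above 1 normalized CPM, *Prkag3* was at -1.15, *Prkab2* at -0.45, *Prkaa2* at -0.40 and *Prkag1* at -0.15, and of the 4 only *Prkag1* was no longer called (adjusted p = 0.0758).

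The subunit genes were then set against each other within each mouse, since the share of a gene in its family does not depend on how the libraries are scaled. Counts were divided by gene length, and 5 shares were compared over 4 contrasts with two-sided exact permutation tests, adjusted over these 20 comparisons. The γ genes showed the largest shift. *Prkag3* made up 69.2%, 66.0% and 57.6% of γ transcripts in vehicle-treated control mice and 66.2%, 59.2%, 71.8%, 64.2% and 70.3% in vehicle-treated HSALR mice. After AICAR it made up 55.0%, 43.1% and 54.4% in control mice and 42.9%, 40.1%, 39.0%, 29.3% and 35.1% in HSALR mice. The lowest vehicle-treated mouse, at 57.6%, was above the highest AICAR-treated mouse, at 55.0%. In HSALR mice the mean fell by 29.1 percentage points (exact permutation p = 0.00794, adjusted p = 0.0317), where 0.00794 is the smallest p that 5 against 5 mice allow. In control mice it fell by 13.4 points without overlap, at the smallest p that 3 against 3 mice allow (exact permutation p = 0.1, adjusted p = 0.118).

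Since the shares of a family add up to the whole, the other shares had to rise when that of *Prkag3* fell. In HSALR mice *Prkag1* itself went only from 29.0 to 32.6 normalized CPM per kb with AICAR while *Prkag3* went from 61.9 to 21.2. The *Prkag1* share of γ transcripts rose from 31.7% ± 4.66 to 58.4% ± 5.42 in HSALR mice (SD, n = 5 each) and from 33.8% ± 5.93 to 45.9% ± 6.21 in control mice (n = 3 each). *Prkag2* remained the smallest share, at 1.93% ± 0.414 before and 4.36% ± 0.249 after AICAR in HSALR mice, and all 5 AICAR values, from 4.03% to 4.71%, were above all vehicle values, from 1.49% to 2.34%. In the direct comparison of AICAR-treated mice, the *Prkag3* share was lower in HSALR than in control mice by 13.6 points, without overlap (exact permutation p = 0.0179, the smallest that 3 against 5 mice allow, adjusted p = 0.0510). After vehicle the 2 genotypes overlapped in all 3 γ shares.

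In the α and β families 1 gene made up most of the transcripts in every mouse. *Prkaa1* held 8.96% ± 0.592 of α transcripts in vehicle-treated control mice and 11.9% ± 1.25 in vehicle-treated HSALR mice, and the lowest HSALR mouse, at 10.1%, was above the highest control mouse, at 9.61% (exact permutation p = 0.0357, adjusted p = 0.0714). With AICAR it fell to 8.58% ± 0.492 in HSALR mice (exact permutation p = 0.00794, adjusted p = 0.0317) and was at 7.60% ± 0.831 in control mice. *Prkab1* held 4.12% ± 0.255 of β transcripts in vehicle-treated control and 6.28% ± 1.48 in vehicle-treated HSALR mice, where mouse S458 was highest at 8.58%. It fell to 4.38% ± 0.430 with AICAR in HSALR mice (exact permutation p = 0.00794, adjusted p = 0.0317). In that contrast *Prkab1* went from 4.70 to 5.41 and *Prkab2* from 71.9 to 119 normalized CPM per kb. All 5 shares tested passed for AICAR in HSALR mice. They did so when any 1 of the other 11 mice was left out, but 0 of the 5 passed when any 1 of the AICAR-treated HSALR mice, S454, S455, S460, S462 or S463, was left out. The difference in the *Prkag3* share was then between -30.5 and -27.1 points, with an adjusted p of 0.0529 in the exact permutation test. An adjusted p also depends on how many other shares reach the smallest p that these numbers of mice allow. The lost calls therefore do not by themselves show a smaller difference. In the other 3 contrasts 0 shares passed, with adjusted p-values of at least 0.0510, and AICAR in control mice, at 3 against 3, could not have passed. In the 1 vehicle-treated HSALR mouse without *Krt14* above 1 normalized CPM, S451, the *Prkag3* share was 66.2%, the *Prkaa1* share 13.4% and the *Prkab1* share 5.64%, all outside the range of the 5 AICAR-treated HSALR mice.

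**Figure D3:**
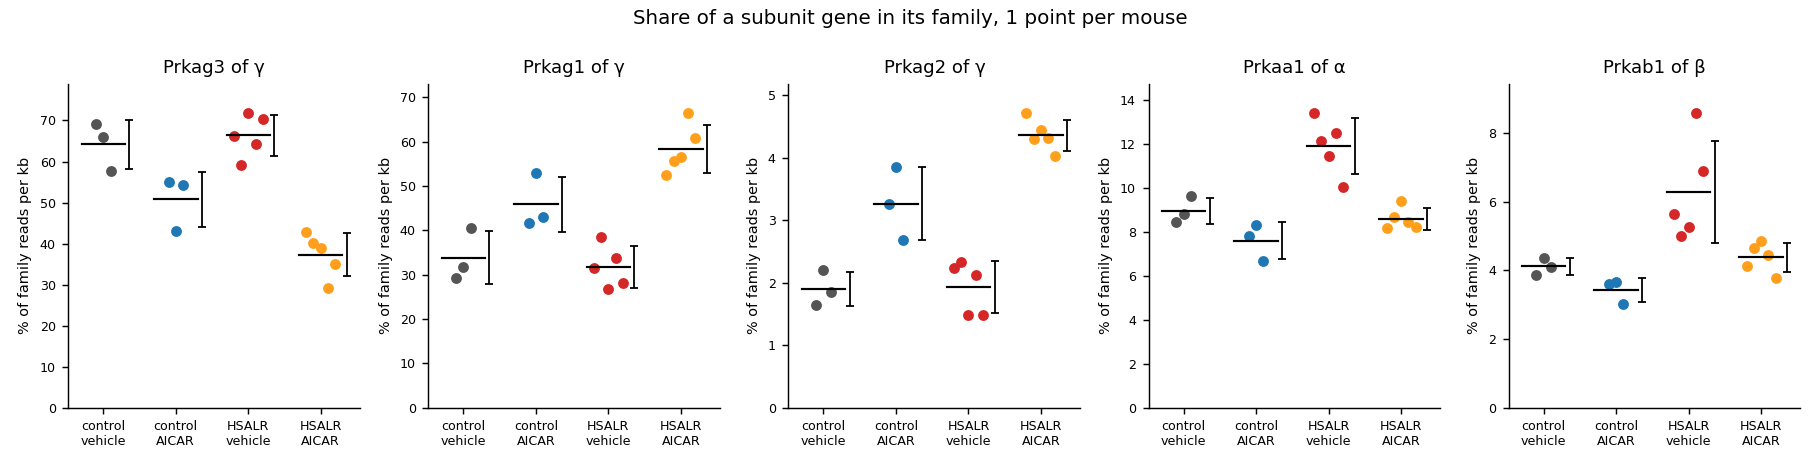
Share of *Prkag3*, *Prkag1* and *Prkag2* in the γ family, of *Prkaa1* in the α family and of *Prkab1* in the β family, as a percentage of counts per kb of gene length (vertical axes from 0), with 1 point per mouse, group means as lines and SDs as bars. The *Prkag3* share is between 57.6% and 71.8% in the vehicle-treated mice and between 29.3% and 55.0% in the AICAR-treated mice of both genotypes.

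Summed over a family, the mean transcript levels of all 3 subunits were lower in HSALR than in control mice after either treatment. The exception was the γ sum after vehicle with scaling to *Tbp*. With AICAR the mean α and β sums were higher and the mean γ sum was lower than with vehicle. The α sums of the treatments overlapped in both genotypes, and the β sums overlapped in control mice. In control mice the α sum was 63.2 to 70.0 after vehicle and 63.6 to 80.4 after AICAR. Mouse S449 was highest there, and the other AICAR-treated control mice lay inside the vehicle range. In HSALR mice the α sum was 42.0 to 56.5 after vehicle and 54.4 to 61.5 after AICAR. These sums are given as a description without a test. The β sum was 152, 154 and 129 normalized CPM per kb in vehicle-treated control mice and 81.9, 85.5, 80.2, 62.5 and 73.0 in vehicle-treated HSALR mice. It was 134, 122, 116, 118 and 129 in AICAR-treated HSALR mice and 155, 146 and 181 in AICAR-treated control mice. The β sum of HSALR mice was thus 0.528 times that of control mice after vehicle and 0.772 times after AICAR. The α sum was 66.9 ± 3.47 in control and 50.9 ± 5.47 normalized CPM per kb in HSALR mice after vehicle, and 71.1 ± 8.54 and 57.7 ± 2.68 after AICAR. The γ sum was 103 ± 13.4 in control and 92.7 ± 10.5 in HSALR mice after vehicle, which overlapped. After AICAR it was 81.0 ± 8.48 in control and 56.2 ± 5.33 in HSALR mice, which did not. In HSALR mice AICAR therefore went with a β sum 1.62 times and a γ sum 0.606 times that after vehicle. In control mice these ratios were 1.11 and 0.785. Without the libraries with *Krt14* above 1 normalized CPM, a single vehicle-treated HSALR mouse was left. The ratio of HSALR to control mice after vehicle was then 0.753 for the α sum, 0.534 for the β sum and 0.772 for the γ sum. AICAR in HSALR mice then went with ratios of 1.15, 1.51 and 0.663. With scaling to *Tbp* the γ sum of HSALR mice after vehicle was above that of control mice, by 0.12 on the log2 scale.

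**Figure D4:**
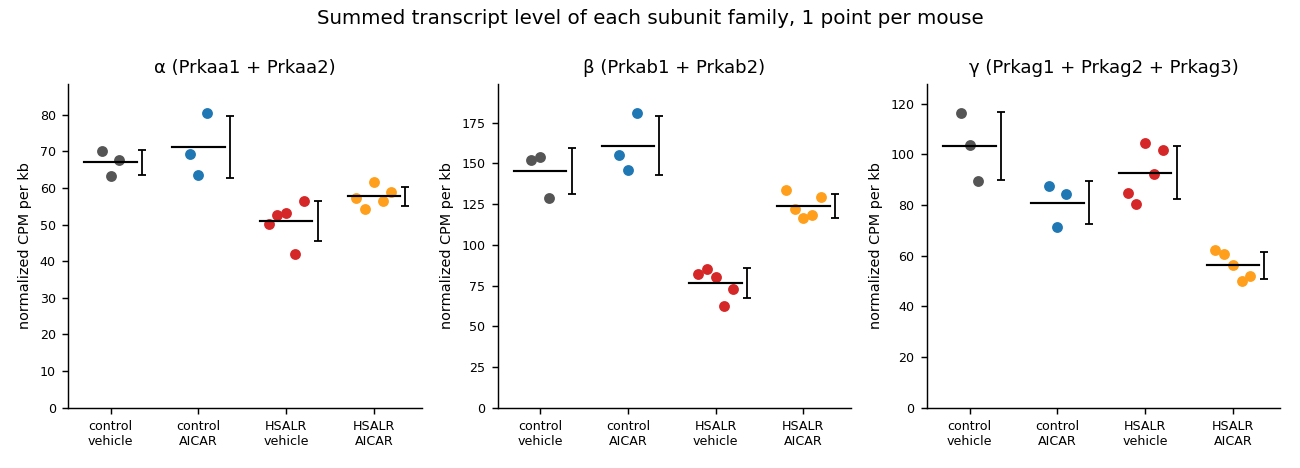
Summed normalized CPM per kb of the α, β and γ genes (vertical axes from 0) in the 4 groups, with 1 point per mouse, group means as lines and SDs as bars. The β sum is lowest in vehicle-treated HSALR mice, at 62.5 to 85.5, and the γ sum is lowest in AICAR-treated HSALR mice, with a highest value of 62.3.

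The other genes around AMPK were counted over 9 lists with 64 genes, all of which were tested. They were LKB1 partners and other upstream kinases, proteins that bind AMPK, phosphatases, the AMPK-related kinases under LKB1, enzymes of AICAR and AMP handling, and known substrates in 4 fields. With AICAR in HSALR mice 20 of the 64 were higher and 5 lower, where 13.7% of all genes tested were higher and 13.0% lower. With AICAR in control mice 9 were higher and 2 lower, where 8.40% of all genes were higher and 4.77% lower. HSALR mice had 3 higher and 11 lower genes than control mice after vehicle, where 15.4% of all genes were higher and 11.5% lower. After AICAR they had 3 higher and 15 lower, where 12.2% of all genes were higher and 9.64% lower. For the difference of the AICAR effects 0 of the 64 were called by edgeR and by limma with voom and 2 by DESeq2, and 12 had an unadjusted p under 0.05 in edgeR. Many of these calls were lost without the libraries with *Krt14* above 1 normalized CPM, where far fewer genes were called in all. With AICAR in HSALR mice 1 of the 64 was then higher and 2 lower (2.78% and 2.99% of all genes), and in control mice 5 were higher and 0 lower (3.15% and 1.32%). In HSALR against control mice 2 were then higher and 1 lower after vehicle (4.14% and 1.66%), and 2 higher and 10 lower after AICAR (8.16% and 7.31%).

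Among the partners of LKB1, *Cab39*, which encodes the scaffold MO25α, rose with AICAR in HSALR mice (log2 fold change 0.42, adjusted p = 0.00117), as did *Strada*, the gene of the pseudokinase STRADα (0.25, 0.0168). *Strada* also rose in control mice (0.52, 0.00223). *Cab39* and *Stradb* were lower in HSALR than in control mice after vehicle, by 0.28 and 0.18 on the log2 scale (adjusted p = 0.0302 and 0.0366). The related genes *Stradb* and *Cab39l* were not called with AICAR in HSALR mice. Their means went from 102 to 108 and from 34.2 to 33.4 normalized CPM. The LKB1 transcript *Stk11* itself was lower with AICAR in HSALR mice. That call was lost with scaling to *Tbp*, and the log2 fold change was -0.08 without the libraries with *Krt14* above 1 normalized CPM. Whether the components of the complex differed in their response was not tested.

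Of the 6 genes for proteins that bind AMPK, 4 rose and 1 fell with AICAR in HSALR mice. *Flcn*, the gene of folliculin, rose by 0.99 on the log2 scale (adjusted p = 0.000222), and its partners *Fnip2* and *Fnip1* by 0.98 (0.0036) and 0.69 (0.0215). In control mice *Fnip2* rose by 1.45 (0.00344), *Flcn* by 1.08 (0.00199), and *Sesn2*, a stress-induced sestrin, fell by 0.80 (0.0371). Of 12 AMPK-related kinases, 2 rose and 2 fell with AICAR in HSALR mice, close to the shares of all genes (13.7% and 13.0%). *Nuak1* fell by 0.71 (0.000283), *Brsk1* fell by 0.62 (0.00469) and *Sik3* rose by 0.45 (0.00112), and 0 of the 12 were called in control mice by edgeR or limma with voom, where DESeq2 called 2, 3 had an unadjusted p under 0.05, and 8.40% of all genes were called higher and 4.77% lower. Of the 5 phosphatase genes 0 were called by edgeR with AICAR in HSALR mice, where 1 had an unadjusted p under 0.05, and 0 in control mice, where 3 did and DESeq2 called 1. In HSALR against control mice after vehicle *Ppp2ca* was higher by 0.33 (0.0033) and *Ppm1b* lower by a log2 fold change of -0.23 (0.0152).

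Of the 10 genes of AICAR and AMP handling, 1 rose, 2 fell and 7 were not called with AICAR in HSALR mice, close to the shares of all genes (13.7% and 13.0%). With AICAR *Ampd3* rose by 0.67 (adjusted p = 0.00243), while *Ampd1*, the AMP deaminase of skeletal muscle, fell by 0.49 (0.000612) and *Atic*, the enzyme that metabolizes ZMP, fell by 0.16 (0.0194). *Adk*, the adenosine kinase that phosphorylates AICAR, was not called in any contrast. *Ampd1* was also lower in HSALR than in control mice after vehicle (-0.37, 0.0102) and after AICAR (-0.68, 0.000156).

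The known substrates of AMPK were listed in 4 fields of 6 genes each, to be read against the 13.7% of all genes that were higher with AICAR in HSALR mice and the 8.40% in control mice. In glucose metabolism 3 of 6 genes rose in HSALR mice. *Pfkfb3*, which makes the activator of glycolysis fructose 2,6-bisphosphate, rose by 1.91 (adjusted p = 0.000554), *Txnip*, an inhibitor of glucose uptake, by 1.40 (0.000297) and *Tbc1d1*, a regulator of glucose transporter traffic, by 1.09 (0.00188). *Pfkfb3* had been lower in HSALR than in control mice after vehicle by a log2 fold change of -2.39 (0.000156). In control mice *Tbc1d1* rose by 1.31 (0.00655) and *Gys1*, muscle glycogen synthase, by 0.31 (0.0499). In lipid metabolism *Acacb*, the acetyl-CoA carboxylase at mitochondria, rose in HSALR mice by 0.84 (4.72e-05) and in control mice by 0.56 (0.0117), and was the only called gene of its list in either. Among regulators of transcription and mitochondria 5 of 6 rose in HSALR mice, with *Ppargc1a*, the gene of the coactivator PGC-1α, at 0.74 (0.0138), *Hdac4*, a class IIa histone deacetylase, at 0.73 (0.00249) and *Mef2a* at 0.38 (0.0256). In control mice *Ppargc1a* rose by 1.66 (0.00113) and *Mff*, a mitochondrial fission factor, by 0.29 (0.00439). In growth and autophagy 2 of 6 genes rose in HSALR mice. *Foxo3* rose in HSALR mice by 0.68 (0.000277) and in control mice by 0.67 (0.00461), while the autophagy kinase *Ulk1* was lower with AICAR in control mice (-0.35, 0.0226).

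**Figure D5:**
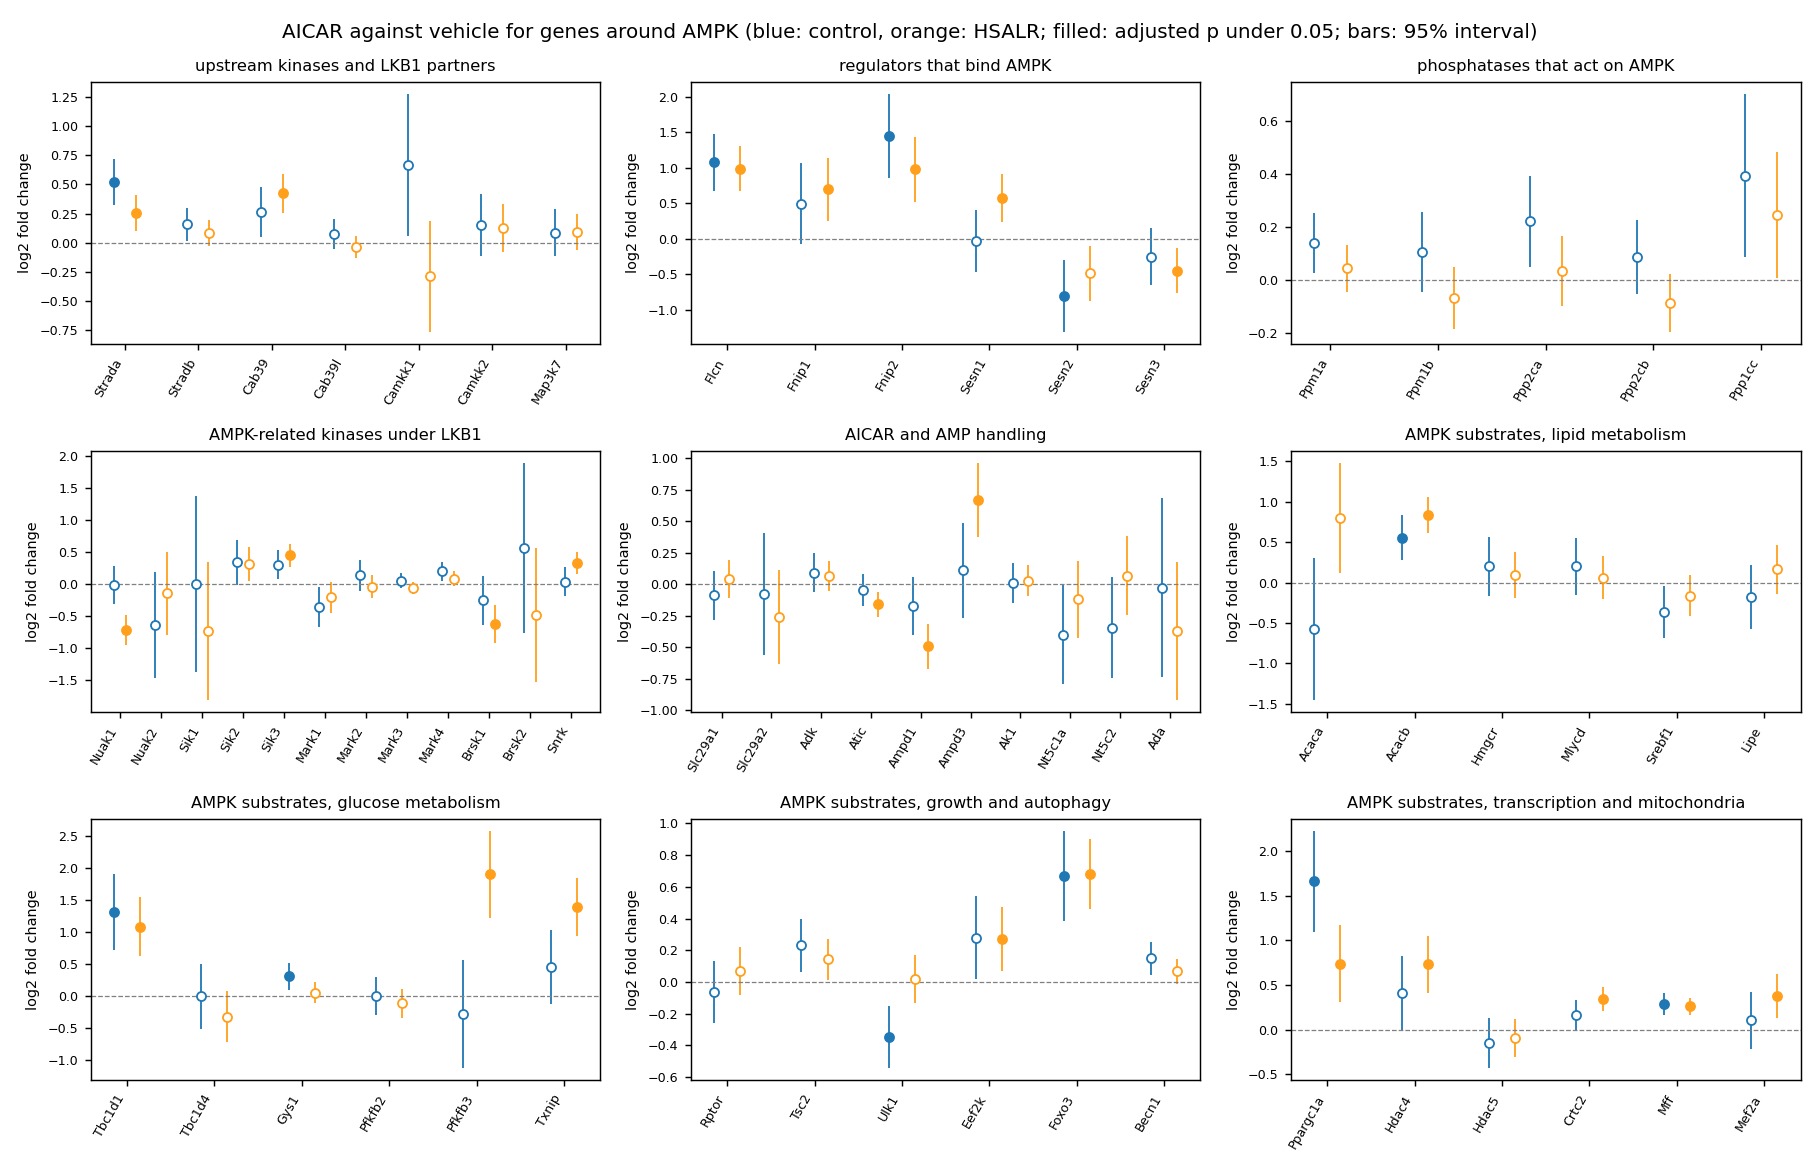
Log2 fold changes of AICAR against vehicle (vertical axes) for the 64 genes of the 9 lists around AMPK, in control mice (blue) and HSALR mice (orange), with 95% intervals and filled points for an adjusted p under 0.05. *Pfkfb3* is at 1.91 in HSALR mice, *Ppargc1a* at 1.66 in control mice, and *Flcn* is near 1 in both, at 0.99 and 1.08.

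Reads of a gene and of a gene on the opposite strand at the same place cannot be told apart where the strand was not used in counting, which is not stated for these counts. In GENCODE, 6 of the 8 genes overlap at least 1 gene of the opposite strand. *Prkab2* overlaps *Gm17651* over 782 bases, *Stk11* overlaps *Cbarp* over 232 bases, and *Prkaa1*, *Prkab1*, *Prkag1* and *Prkag2* overlap noncoding genes. *Prkaa2* and *Prkag3* overlap none.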

How the data were processed

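Gene-level counts of 16 *gastrocnemius* libraries, 1 per mouse, were analysed. The authors mapped single-end reads of stranded libraries to mm10 with STAR 2.5.2a, a version that is also in the submitters' processing notes, and reported 1 location for hits of equal score. With QuasR they counted the reads that begin in a RefSeq exon of each gene. They deposited raw counts per gene with a gene length, without normalization. Whether strand was used in counting is not given in the sources used here.

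Groups were taken from the sample labels. Symbols of 24374 of the 24454 Entrez identifiers were matched to RefSeq (GRCm38.p6), and exons and overlaps were taken from GENCODE on GRCm38, the assembly of mm10. In R 4.3.3, edgeR 4.0.16 was used with TMM scaling, filterByExpr over the 4 groups, glmQLFit and glmQLFTest, with 1 mean per group over all 16 mice. An SE is the log2 fold change divided by the root of the F statistic. Benjamini-Hochberg adjustment was over 15487 genes. Family shares used counts per kb and two-sided exact permutation tests. A planned permutation test of the family sums is not reported, since the genes were chosen with results known. The scripts were tested on simulated data. Mice of a group differed by more than sampling noise in all 26 pairs (chi-square per degree of freedom 25.1 to 141).

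The 8 genes and the lists were chosen with earlier results of these data known. The text names all 8 and *Tbp*, and of each list at most 3 called genes per contrast, by size of the log2 fold change, with a mean count of at least 50. *Adk*, *Myh1* and *Myh4* were named after their values were seen. For each of the 8, the 2 genes were named whose centred log2 profile over the 16 mice differed least (root mean square). The alternatives were DESeq2 1.42.0 and limma 3.58.1 with voom, 4 other scalings (RLE, upper quartile, library size, *Tbp*), 2 other filters, robust dispersion, a fit of the compared groups alone, and the omission of each mouse in turn. Omission of the libraries with *Krt14* above 1 normalized CPM was chosen after seeing the data.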

Additional observations from a re-analysis of the deposited data

Results flagged for a closer look

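The levels of the 8 genes and *Tbp* and the shares and sums of the subunit genes were checked in the groups of 5 mice. Of these 34 sets of values, 2 had a mouse that stands apart from the others. Chance alone gives about 1 in 20. *Prkaa1* was at 26.9 normalized CPM in AICAR-treated HSALR mouse S460 and between 21.8 and 22.4 in the other mice of that group, a gap of 0.880 of the range. Without S460 *Prkaa1* remained lower with AICAR in HSALR mice, at a log2 fold change of -0.34. *Stk11* was at 93.3 normalized CPM in AICAR-treated HSALR mouse S463 and between 97.8 and 99.5 in the others, a gap of 0.717 of the range. The log2 fold change of *Stk11* with AICAR in HSALR mice was between -0.20 and -0.15 when any 1 mouse was left out.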

How the results depend on the processing

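Scaling to *Tbp* left 1 of the 8 genes called in HSALR against control mice after vehicle, 1 after AICAR, 3 for AICAR in HSALR mice, 1 for AICAR in control mice and 1 for the difference of the AICAR effects, and turned *Prkag1* after vehicle to a log2 fold change of 0.032. The log2 ratios of the family sums became -0.11 (α), -0.65 (β) and 0.12 (γ) in HSALR against control mice after vehicle, and 0.29 (α), 0.34 (β) and -0.15 (γ) for AICAR in control mice. *Tbp* itself was lower in vehicle-treated HSALR mice, and this scaling moved the median of all genes to 0.28 in HSALR against control mice after vehicle, -0.13 for AICAR in HSALR mice, 0.19 for AICAR in control mice and -0.32 for the difference of the AICAR effects. For AICAR in control mice, 3 of the 8 were called with DESeq2, 2 with upper-quartile scaling and 2 by library size, and for the difference of the AICAR effects 1 with DESeq2. Not divided by gene length, the log2 ratio of the γ sum with AICAR in HSALR mice was -0.90. When each mouse was left out in turn, the number of the 8 genes called was 1 to 4 in HSALR against control mice after AICAR and 0 to 1 for AICAR in control mice, and the number of shares called for AICAR in HSALR mice was 0 to 5. Without the *Krt14* libraries 3 of the 8 were called for AICAR in HSALR mice. The cause was not tested.

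Over all genes, the calls after vehicle went from 4169 (2385 higher, 1784 lower) to 904 without the *Krt14* libraries, and to 5053 higher and 242 lower with *Tbp*. After AICAR, 3379 calls went to 1396 with *Tbp* and 2214 without S447. AICAR in HSALR mice gave 4121 calls (2114 higher, 2007 lower), 899 without the *Krt14* libraries, 1327 higher and 2962 lower by library size, and 697 higher and 2071 lower with *Tbp*. AICAR in control mice gave 2039 calls (1301 higher, 738 lower), 1164 with only the groups compared, 1214, 1344 and 1143 without S445, S448 or S449, and 697 without the *Krt14* libraries. There upper-quartile scaling gave 945 higher and 1149 lower, library size 916 and 890, and *Tbp* 2028 and 122. For the difference of the AICAR effects 107 calls (32 higher, 75 lower) became 536 with DESeq2, 381 with *Tbp* (6 higher, 375 lower), 15 to 371 with 1 mouse left out and 0 without the *Krt14* libraries, and upper-quartile scaling gave 48 higher and 70 lower. No paired analysis was possible because each mouse has its own identifier and the groups share none. Counting error is small at this depth, with at least 415 reads per gene and library, and the number of mice limits precision.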

Other observations

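The genes whose profile over the 16 mice was most like that of each subunit gene are given as a description. For *Prkag3*, whose own root mean square deviation from its mean was 0.755 on the log2 scale, they were *Cited4* and *Mss51*, at root mean square differences of 0.296 and 0.324. For *Prkab2* (0.458) they were *Qser1* and *Gpd2*, at 0.108 and 0.129, and for *Prkaa2* (0.240) *Luc7l2* and *Cul3*, at 0.0590 and 0.0838. For *Prkag2* (0.291) they were *Mcam* and *Clcn6*, at 0.124 and 0.154, and for *Prkag1* (0.138) *Zcrb1* and *Grk2*, at 0.0613 and 0.0614. For *Prkaa1* (0.161) they were *Slmap* and *Tshz1*, at 0.0709 and 0.0746. *Prkab1* (0.166) was closest to *Pnisr* and *E4f1*, at 0.0949 and 0.0969, and *Stk11* (0.122) to *Fuz* and *Sft2d2*, at 0.0636 and 0.0652.

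Markers of other cell types were summed in each mouse. Macrophage and leukocyte markers were between 49.0 and 67.6 normalized CPM in vehicle-treated control mice and between 65.6 and 79.7 in vehicle-treated HSALR mice, where 2 of 6 were called higher. With AICAR 0 of 6 fast fibre markers rose and 1 fell in HSALR mice, where *Prkag3* fell. Their sums were between 70372 and 92743 after vehicle and between 76262 and 85244 after AICAR. Such sums can overlap while a single marker differs, as *Myh1* did between the genotypes after vehicle. The part of fibre type in the fall of *Prkag3* was not tested.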
